A study of Drosophila melanogaster with 16 samples.

Results

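H3K4me3 and H3K27ac, a pair of histone marks found at active promoters, were compared between nuclei of Kenyon cells and of octopaminergic neurons from adult Drosophila melanogaster heads. The members were chosen by label and date tag: the H3K4me3 and H3K27ac promoter counts of the OK107 and Tdc2 lines that share 1 date tag, and the promoter counts of both inputs, together 6 of the 16 samples of the series. The OK107 group carried OK107-GAL4 driving unc84-GFP, a nuclear envelope tag, primarily in Kenyon cells. The Tdc2 group carried Tdc2-GAL4 driving the same tag, primarily in octopaminergic neurons. Another line, R57C10-GAL4, labelled all neurons with the same tag and is used here for the spread between libraries. The word primarily in the labels means that each line also tags other cells, and nuclei came from large pools of frozen heads of adults, with no exact age and no sex given. Tagged nuclei were captured on antibody beads, their chromatin was cut with micrococcal nuclease, and the inputs were chromatin without immunoprecipitation.

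H3K4me3 is placed at the starts of transcribed genes and of genes held ready for transcription, and H3K27ac is placed by the acetyltransferase CBP at active promoters and enhancers. H3K27me3, placed by the Polycomb complex PRC2 on the same lysine that carries the acetyl group, covers silenced developmental genes. Kenyon cells are the intrinsic neurons of the mushroom body, the centre of olfactory learning in the fly, and are known for the transcription factors ey, toy and dac. Octopaminergic neurons make octopamine, the insect counterpart of noradrenaline, from tyrosine in 2 steps: the decarboxylase Tdc2 makes tyramine and the hydroxylase Tbh turns it into octopamine, which the transporter Vmat loads into vesicles.

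Each line and mark had 1 library, so no test was made on the active marks: every fold below compares libraries, and both marks serve as a pair of readings of the same promoter. Promoter reads numbered 41.92 M in OK107 and 6 M in Tdc2 for H3K4me3, 11.07 and 7.92 M for H3K27ac, and 8.54 and 8.13 M for the inputs. Levels of the marks are TMM-scaled CPM, that is, reads relative to library size, in a 1001 bp window around an annotated start, and inputs are CPM by total count. Log2 folds are OK107 over Tdc2 after adding 1 CPM. Of 15182 genes, each with 1 window, 14483 had a mean of at least 5 CPM over the pair of lines in each mark and were compared, and 699 were not. A promoter was called concordant when both marks differed by at least 2-fold in the same direction. Fewer nuclei with a mark and less of the mark per nucleus cannot be told apart in such pools.

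By this rule 10 promoters (0.069% of those compared) were higher in OK107 and 214 (1.48%) were higher in Tdc2, and 3 differed by 2-fold in opposite directions. The 10 were ey, dac, pros, Lim3, Gadd45, Ady43A, mthl8, Pvf3, Snp and CG42302, of which ey, dac, pros and Lim3 encode transcription factors. The gap at the top of the OK107 list was wide, since the smaller of the log2 folds was 2.22 for ey and 1.29 for Gadd45, the next apart from mthl8. The threshold itself marked no gap: Pvf3, just past it, had a smaller log2 fold of 1.02, and the Wnt effector gene pan, just below it, had 0.99. On the Tdc2 side Vmat led with a smaller log2 fold of 2.68 in size, while CG13330 stood at 1.00 just past the threshold and HLH4C at 0.998 just below.

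H3K4me3 alone passed 2-fold at 1837 promoters (12.7%) in OK107 and 4956 (34.2%) in Tdc2, and H3K27ac alone at 17 (0.117%) and 273 (1.88%). The concordant promoters were therefore 3.30% of the H3K4me3 calls and 77.2% of the H3K27ac calls. Across the 14483 genes, which are not independent and share libraries and depth, the folds of both marks correlated with r = 0.58.

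The folds ran along promoter level. In H3K4me3 the median log2 fold was -1.28 in the lowest of 10 equal bins of promoters by level and 0.99 in the highest bin. In H3K27ac the same medians were -0.58 and 0.34. The highest bin of H3K4me3 promoters stood 2.07 above input on the log2 scale in OK107 and 1.05 in Tdc2. The lowest bin stood at -3.11 and -1.90, so the OK107 library held more contrast between marked and unmarked promoters. The H3K4me3 TMM factors were 0.89 for OK107 and 1.34 for Tdc2. In all comparisons with input they raised H3K4me3 in OK107 and lowered it in Tdc2, since inputs were not TMM-scaled. The top 20% of promoters held 63.3% of H3K4me3 reads in OK107 and 48.9% in Tdc2.

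**Figure D1:**
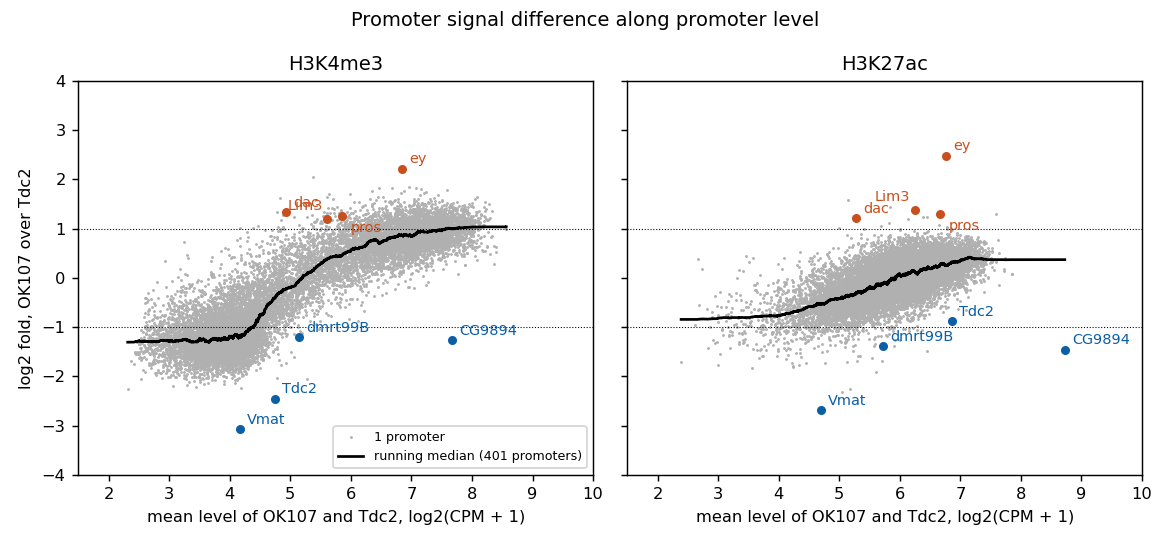
Log2 fold of OK107 over Tdc2 (y axis) against the mean promoter level, log2(CPM + 1) (x axis), for H3K4me3 (left) and H3K27ac (right), with 1 grey point per compared promoter and a running median over 401 promoters in black. The median climbs with level in both marks, from -1.28 to 0.99 between the lowest and the highest of 10 bins in H3K4me3, and ey lies above it while Vmat, Tdc2 and CG9894 lie below it; mthl8 lies outside the plotted range in both marks.

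Because of this trend each promoter was also read against the running median of promoters of its own level, and against the running median along enrichment over input. Along level, 13 promoters (0.0898%) were concordantly higher in OK107 and 7 (0.0483%) in Tdc2. Along enrichment the counts were 8 (0.0552%) and 38 (0.262%). A single mark passed 2-fold at 1.48 and 0.345% of promoters, for OK107 and Tdc2, in H3K4me3 along level and at 0.235 and 0.366% in H3K27ac. Along enrichment these shares were 0.407 and 1.1% in H3K4me3 and 0.159 and 0.711% in H3K27ac. Most of the H3K4me3 calls made with TMM thus did not pass against promoters of like level. Only ey, dac and mthl8 on the OK107 side, and Vmat, CG9894 and dmrt99B on the Tdc2 side, were concordant under all 3 readings. None of these readings subtracts the input fold. The inputs of mthl8 (38.8 against 0.49 CPM) and CG9894 (49.8 against 86.7 CPM) differed in the direction of their marks. With the input fold subtracted from the TMM folds, neither mthl8 nor CG9894 kept 2-fold in both marks. The correlation of both marks across genes was 0.36 along level and 0.45 along enrichment.

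The same rule on the R57C10 libraries, early against late by their date tags, gave 2 (0.0146%) and 35 (0.256%) concordant promoters of 13657 with TMM, 0 (0.0%) and 2 (0.0146%) along level, and 1 and 1 (0.00732% each) along enrichment. With TMM, H3K4me3 alone passed 2-fold at 25.9 and 3.5% of promoters between them, and H3K27ac at 0.0439 and 0.373%. The H3K4me3 fold between these libraries of 1 line also ran along level, from 1.06 in the lowest bin to -0.71 in the highest. A level trend of this kind was thus present between libraries of a single line, whereas in H3K27ac the same medians were 0.06 and 0.11. The 99th percentile of the absolute log2 difference between the R57C10 libraries along level was 1.02 in H3K4me3 and 0.94 in H3K27ac. The R57C10 libraries of each mark differ in date tag, whereas the OK107 and Tdc2 libraries of these marks share 1 tag. The part of the date in this spread was not tested.

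**Figure D2:**
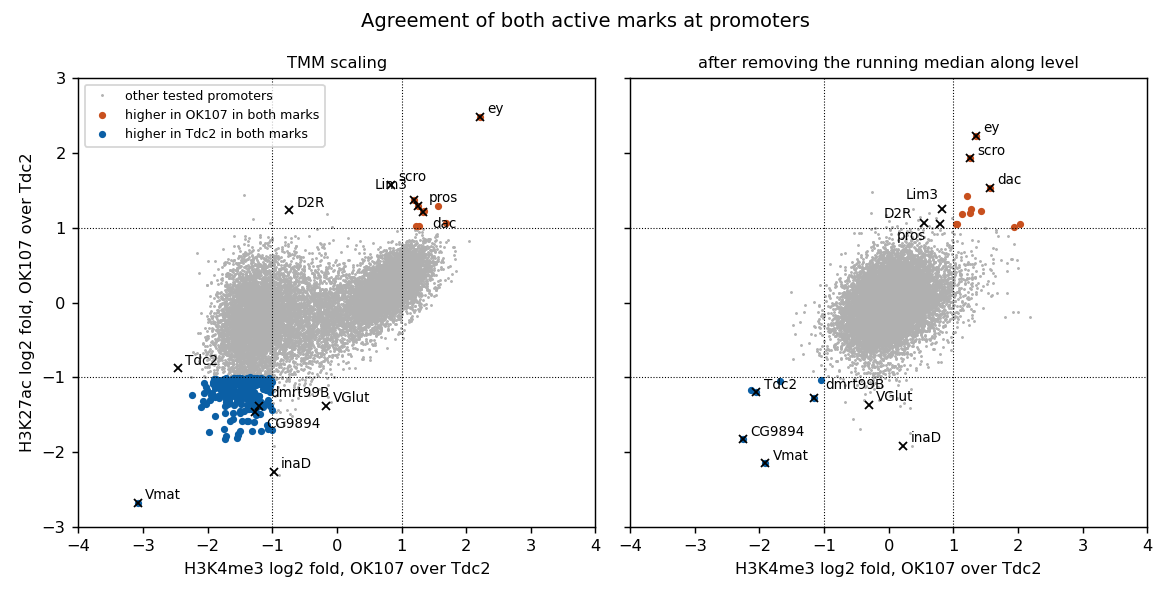
H3K27ac log2 fold (y axis) against H3K4me3 log2 fold (x axis), OK107 over Tdc2, 1 point per promoter, with TMM (left) and with the running median along level removed (right); dotted lines mark 2-fold. With TMM 10 promoters fall in the upper right and 214 in the lower left corner, and along level 13 and 7 do; mthl8 lies outside the plotted range.

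The promoter of eyeless (ey), the fly Pax6 gene, had the largest smaller fold toward OK107 apart from mthl8. Its window on chromosome 4 (CG1464-RA, dm3, 725203 to 726204) held 248 CPM of H3K4me3 in OK107 and 52.5 in Tdc2, and 255 and 44.8 CPM of H3K27ac. The R57C10 libraries held 63.3 and 53.4 CPM of H3K4me3 and 58.2 and 56.95 of H3K27ac, so OK107 stood apart from all other libraries, and the all-neuron level was close to that of Tdc2. The log2 folds were 2.22 in H3K4me3 (95% counting interval of the CPM ratio 2.097 to 2.382) and 2.48 in H3K27ac (2.35 to 2.67). These exact intervals cover counting error only, not the spread between libraries. A second ey window (727555 to 728556) held 91.3 against 27.1 CPM of H3K4me3 and 157 against 31.5 CPM of H3K27ac. The other window (717815 to 718816) held 4.11 against 7.48 and 8.38 against 10.9 CPM, so the difference belonged to the 2 neighbouring starts. OK107-GAL4 is known as an insertion at the ey locus. The input at the main ey window was lower in OK107 than in Tdc2, 59.0 against 84.7 CPM.

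The gene dachshund (dac, CG4952, 2L, 16485484 to 16486485), a transcriptional regulator present in Kenyon cells, held 47.2 CPM of H3K4me3 in OK107 and 18.1 in Tdc2. Its H3K27ac was 58.2 and 24.5 CPM, with inputs of 34.1 and 37.6. The R57C10 libraries lay between the lines at 26.3 and 28.2 CPM of H3K4me3 and 39.6 and 38.6 of H3K27ac. The log2 folds of dac were 1.34 and 1.22 with TMM, 1.57 and 1.54 along level, and 1.06 and 1.09 along enrichment. Both of its windows, which overlap and share reads, were more than 2-fold higher in OK107 in both marks.

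The homeodomain gene prospero (pros, CG17228, 3R, 7198010 to 7199011), which drives neural precursors out of division, held 88.3 against 36.4 CPM of H3K4me3 and 157 against 63.4 CPM of H3K27ac. In R57C10 the H3K27ac of pros was 67.0 CPM in the early and 125 in the late library, and the late library was nearer to OK107 than to Tdc2. The inputs of pros were 95.1 CPM in OK107 and 70.5 in Tdc2, so its H3K4me3 lay below input in OK107. All 3 pros windows were more than 2-fold higher in OK107 in H3K27ac, while H3K4me3 was higher in 1 of them. The LIM homeodomain gene Lim3 (CG10699, 2L, 19105772 to 19106773) held 72.7 against 31.2 CPM and 121 against 46.1 CPM, above R57C10, which held 15.6 to 18.8 CPM of H3K4me3 and 31.7 to 36.3 of H3K27ac. Its inputs were 114 and 99.7 CPM, so H3K4me3 at Lim3 lay below input in both lines. Along level, pros and Lim3 kept 2-fold in H3K27ac (1.05 and 1.25) and not in H3K4me3 (0.80 and 0.82).

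The other 6 promoters differed in other ways. The adenosine kinase gene Ady43A (Adk3 in RefSeq) and the stress gene Gadd45 are neighbours on 2R, and their inputs were also higher in OK107, at 87.3 against 48.2 CPM and 137 against 69.0 CPM. The putative receptor gene mthl8 (3L, 22447 to 23448) held 137 CPM of H3K4me3 and 47.4 of H3K27ac in OK107, and 2 and 0 reads in Tdc2. Its input was 38.8 CPM in OK107, 0.49 in Tdc2 and 0 in R57C10, so the difference was present before immunoprecipitation. Pvf3, which encodes a growth factor of the PDGF and VEGF family, held 74.4 against 30.2 and 156 against 76.3 CPM. The exonuclease gene Snp held 228 against 97.4 and 156 against 75.9 CPM. In H3K4me3 the late R57C10 library was above OK107 for Pvf3, at 90.8 CPM, and close to it for Snp, at 222 CPM. For Ady43A both R57C10 libraries were about as high as OK107 or higher, at 139 and 168 CPM, so Tdc2 was the low library there.

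**Figure D3:**
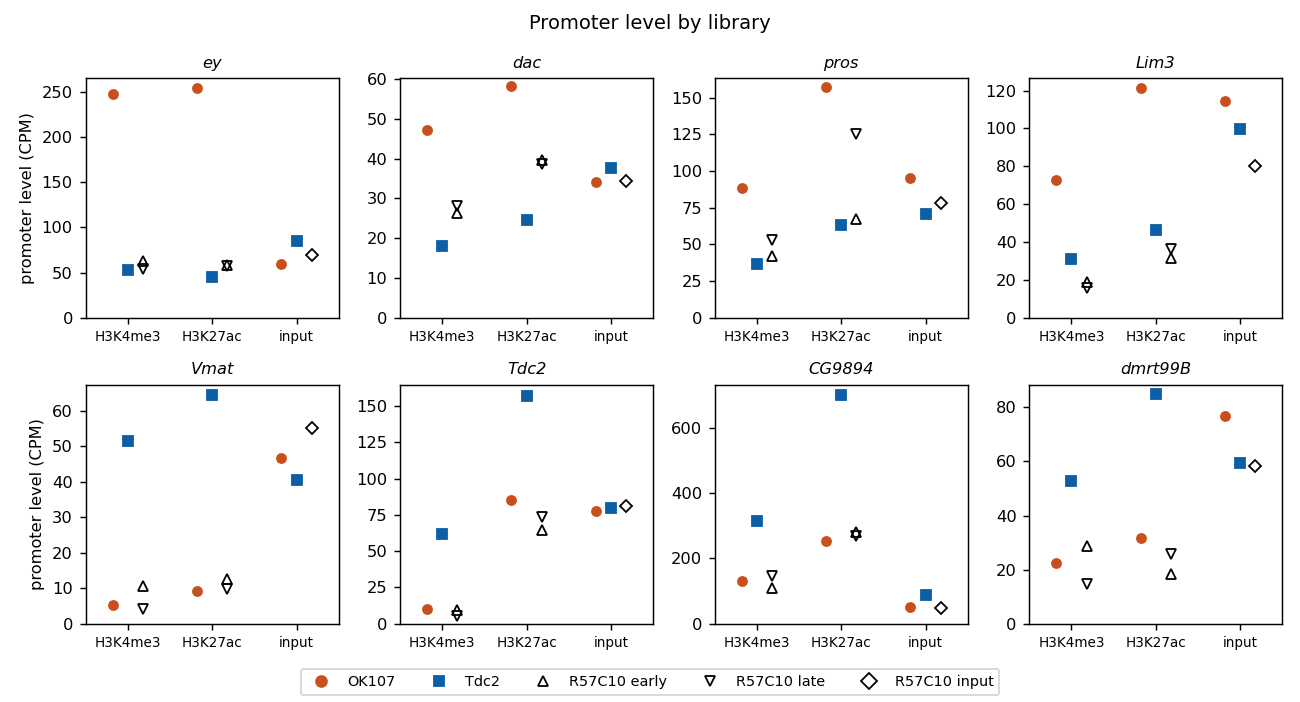
Promoter level in CPM (y axis, from 0, with its own scale in each panel) of 8 genes in H3K4me3, H3K27ac and input, with 1 symbol per library: OK107, Tdc2 and the R57C10 libraries. OK107 is the highest library in both marks for ey (248 and 255 CPM), dac, pros and Lim3, and Tdc2 is the highest in both marks for Vmat (51.4 and 64.4 CPM), Tdc2, CG9894 and dmrt99B.

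On the Tdc2 side most of the 214 promoters carried little of either mark. In Tdc2 itself 192 of them lay below input in both marks, and 5 lay above it in both, against 4575 of the 14483 compared promoters above it. These 5 were Vmat, CG9894, the kinesin gene Kif3C and 2 snoRNA genes, of which Kif3C and the snoRNA genes were low, with no Tdc2 level above the 13.97 CPM of H3K27ac at Kif3C. On the OK107 side 6 of the 10 lay above the OK107 input in both marks, against 5756 of the 14483 compared promoters. Of the 214, 124 were known by a CG or CR number alone (57.9%, against 55.8% of all compared promoters).

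Vmat, the vesicular monoamine transporter gene, had the largest fold toward Tdc2 in both marks together. Its window (CG33528-RD, 2R, 9416855 to 9417856) held 5.20 CPM of H3K4me3 in OK107 and 51.4 in Tdc2, and 9.19 and 64.4 CPM of H3K27ac. R57C10 held 10.7 and 4.08 CPM of H3K4me3 and 12.7 and 9.85 of H3K27ac, so Tdc2 stood above all other libraries. The log2 folds were -3.08 (interval -3.56 to -3.05) and -2.68 (-3.13 to -2.50), and -1.91 and -2.15 along level. The interval of the CPM ratio lacks the added 1 CPM, which draws the fold of low levels towards 0. The other annotated Vmat start (9419994 to 9420995) held 12.7 against 23.4 and 35.4 against 54.9 CPM, so the difference was larger at the first window. Inputs at the first window were 46.7 and 40.5 CPM.

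The synthesis genes differed chiefly in H3K4me3. The Tdc2 promoter (CG30446, 2R, 2576967 to 2577968) held 10.4 CPM of H3K4me3 in OK107, 61.6 in Tdc2, and 9.50 and 5.46 in R57C10. Its H3K27ac was 85.0 in OK107, 157 in Tdc2, and 64.8 and 73.7 in R57C10. Tdc2 was the highest library in both marks, yet the H3K27ac log2 fold of -0.88 did not reach 2-fold with TMM and did so along level (-1.20), beside -2.46 and -2.05 in H3K4me3. Tdc2-GAL4 uses regulatory sequence of this gene, and the promoter inputs were 77.4 CPM in OK107 and 79.5 in Tdc2. At w, the eye colour gene carried by many transgenes, H3K4me3 was 51.8 against 43.8 CPM and H3K27ac 104 against 112 CPM. Tbh (CG1543, X) held 8.62 against 31.2 CPM of H3K4me3 and 22.2 against 34.4 of H3K27ac, but R57C10 reached 19.1 and 19.5 and, in H3K27ac, 37.7 and 31.5 CPM. Along level the folds of Tbh were -0.54 and -0.15.

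The list written for octopamine synthesis and loading held 6 names, of which prt was not matched. It also held VGlut, which belongs to glutamate release and not to octopamine. All 5 matched genes were lower in OK107 in both marks with TMM and along level. Their median log2 fold was -1.74 in H3K4me3 and -0.88 in H3K27ac with TMM, and -0.54 and -1.20 along level, beside medians of all genes of -0.34 and 0.00 with TMM and 0 along level. Without VGlut, left out after its values were seen, the medians of the 4 genes Tdc2, Tbh, Vmat and Tdc1 were -2.10 and -0.75 with TMM and -1.23 and -0.68 along level. One of the 5, Vmat, was concordant with TMM, beside 1.48% of all promoters, and Vmat and Tdc2 were concordant along level, beside 0.0483%. Tdc1, the decarboxylase gene used outside the nervous system, held 9.50 against 24.6 and 49.4 against 57.3 CPM and had -0.08 and -0.10 along level.

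VGlut, the vesicular glutamate transporter gene (CG9887, 2L, 2399795 to 2400796), split the marks. Its H3K27ac was 35.9 CPM in OK107 and 95.05 in Tdc2, with 38.2 and 32.4 in R57C10, a log2 fold of -1.38. Its H3K4me3 was 37.5 and 42.4 CPM, with 45.7 and 30.4 in R57C10, a log2 fold of -0.17. At a second, overlapping VGlut window the folds were -0.72 in H3K4me3 and -1.17 in H3K27ac.

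None of the 6 matched octopamine and tyramine receptor genes was concordant, and their medians were 0.18 in H3K4me3 and 0.24 in H3K27ac with TMM. Oamb, the octopamine receptor first found in mushroom bodies, held 68.1 against 32.4 CPM of H3K4me3 and 93.9 against 70.1 of H3K27ac, and R57C10 held 59.9 and 73.4 CPM of H3K4me3 and 116 and 98.9 of H3K27ac. The beta-type receptor gene oa2 held 59.7 against 29.4 CPM of H3K4me3 and 83.3 against 63.2 of H3K27ac, and Octbeta2R held 25.2 against 28.4 and 113 against 83.1 CPM. For TyrR the levels were 48.1 against 36.2 and 69.0 against 68.1 CPM, and for TyrRII 8.67 against 21.1 and 84.5 against 81.3 CPM. Octbeta3R held 33.3 against 34.3 and 49.7 against 46.6 CPM. With TMM, H3K27ac was thus higher in OK107 for all 6 by less than 2-fold, while the direction in H3K4me3 was mixed. Along level H3K4me3 was higher in OK107 for all 6 and H3K27ac for 4 of them. The medians along level were 0.17 and 0.22, and along level no receptor gene passed 2-fold in either mark. With TMM, H3K4me3 passed 2-fold toward OK107 for Oamb and toward Tdc2 for TyrRII.

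CG9894 (Bacc in RefSeq) held the highest levels of the concordant promoters. Its window (2L, 2752299 to 2753300) held 131 CPM of H3K4me3 in OK107 and 315 in Tdc2, and 254 and 700 CPM of H3K27ac. R57C10 held 108 and 146 CPM of H3K4me3 and 281 and 270 of H3K27ac, so Tdc2 lay above all other libraries, and OK107 lay between the R57C10 libraries in H3K4me3 and a little below them in H3K27ac. The log2 folds were -1.26 and -1.46 with TMM and -2.26 and -1.83 along level, with inputs of 49.8 and 86.7 CPM. The input was thus higher in Tdc2 as well, by less than either mark. A second, overlapping CG9894 window (2752735 to 2753736) passed 2-fold in neither mark. Its log2 folds with TMM were -0.40 in H3K4me3 and -0.95 in H3K27ac, with inputs of 46.2 and 72.0 CPM. The DMRT-family transcription factor gene dmrt99B (CG15504, 3R, 25517813 to 25518814) held 22.4 against 52.9 CPM and 31.8 against 84.9 CPM, with R57C10 at 28.9 and 14.8 and at 18.3 and 25.7. Its H3K4me3 lay below the Tdc2 input of 59.4 CPM and its H3K27ac above it.

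Among the other high folds toward Tdc2, inputs often moved as well. The proteasome gene CG31742, CG41242 and fau were concordant along level, with inputs of 155 against 229, 211 against 320 and 75.9 against 154 CPM. The P450 gene Cyp6a17 and the flight muscle gene fln followed Vmat in the order by smaller fold with TMM, both at 1.73 in size, and their highest level in any mark was 32.8 CPM, the H3K27ac of Cyp6a17 in Tdc2. For Cyp6a17 the input was 15.2 CPM in OK107 and 35.3 in Tdc2.

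The Kenyon cell list held 30 names, of which leo and Syp were not matched and 28 were compared. Concordantly higher in OK107 were 3 of the 28, namely ey, dac and pros, beside 0.069% of all promoters, and 0 of 28 were higher in Tdc2. The count along level was also 3, with ey, dac and the nuclear receptor gene Hr51 (1.06 and 1.05). Both marks were higher in OK107, at any size, for 17 of 28 genes and lower for 3 with TMM. Over all 14483 promoters these counts were 5028 and 5810. In the list they were 18 and 6 along level, beside 4389 and 4410 of all promoters. Along enrichment they were 12 and 10, beside 4480 and 4475. The medians were 0.53 in H3K4me3 and 0.16 in H3K27ac with TMM, 0.44 and 0.27 along level, and 0.09 and -0.02 along enrichment, where the H3K27ac median was on the other side of 0. Most genes of the list thus had folds within 2-fold in both marks.

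The second Pax6 gene toy (4) held 47.2 against 31.8 CPM of H3K4me3 and 53.4 against 30.2 of H3K27ac, with folds of 0.55 and 0.80. The dopamine receptor gene DopR, needed in Kenyon cells for olfactory learning, held 86.8 against 34.3 CPM of H3K4me3 and 111 against 78.5 of H3K27ac. In R57C10 DopR held 49.9 and 56.7 CPM of H3K4me3, below OK107, and 114 and 87.1 CPM of H3K27ac, on both sides of it. The adenylate cyclase gene rut held 39.4 against 24.9 and 30.5 against 25.7 CPM, and the catalytic kinase subunit gene Pka-C1 held 66.7 against 38.4 and 47.6 against 52.4 CPM. The phosphodiesterase gene dnc had 9 windows, some of them overlapping, and both marks were higher in OK107 at 4 and lower at 2 of the 9. The learning genes rut, Pka-C1 and dnc thus showed smaller and mixed differences. In H3K4me3 alone 5 of the 28 passed 2-fold toward OK107, namely ey, dac, pros, DopR and Oamb, beside 12.7% of all promoters. Toward Tdc2 2 passed, dnc and the BTB factor gene ab, beside 34.2% of all promoters. The H3K4me3 of ab was 5.10 against 16.6 CPM, below input in both lines.

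Imp, an RNA-binding protein gene that marks early-born Kenyon cells during development, went the other way. At its highest window (X, 10709157 to 10710158) H3K27ac was 32.1 CPM in OK107 and 73.9 in Tdc2, with 21.2 and 24.0 in R57C10. H3K4me3 was 9.13 and 18.95 CPM, below input in both lines. All 7 Imp windows compared were lower in OK107 in both marks, with H3K27ac log2 folds of -1.36 to -0.78 and H3K4me3 folds of -1.28 to -0.48. In 4 of them H3K27ac passed 2-fold. Both marks did so at 10707626 to 10708627 (-1.09 in H3K4me3 and -1.36 in H3K27ac) and at 10715244 to 10716245 (-1.28 and -1.12). At the highest window, the one kept for Imp, the H3K4me3 fold was -0.98. Some of the 7 windows overlap and share reads.

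**Figure D4:**
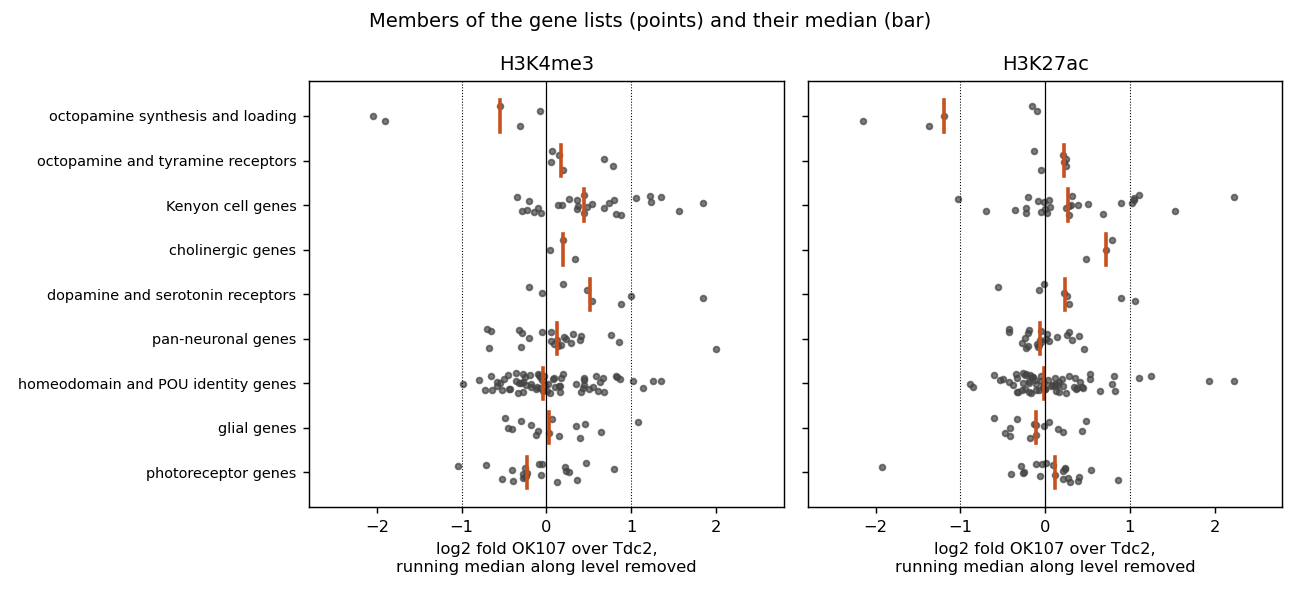
Log2 fold of OK107 over Tdc2 with the running median along level removed (x axis), for H3K4me3 (left) and H3K27ac (right), by gene list (y axis), with 1 point per compared member and a bar at the list's median. The bar of octopamine synthesis and loading, a list that also holds VGlut, lies at -0.54 and -1.20, that of Kenyon cell genes at 0.44 and 0.27, and that of cholinergic genes at 0.20 and 0.71.

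The 3 cholinergic genes were higher in OK107 in both marks by less than 2-fold. Cha, the choline acetyltransferase gene, held 68.3 against 43.5 CPM of H3K4me3 and 71.9 against 43.2 of H3K27ac, with 70.4 and 129 and with 83.4 and 109 in R57C10. VAChT, the vesicular acetylcholine transporter gene that lies within the Cha locus, held 53.3 against 40.1 and 61.3 against 41.2 CPM. The choline transporter gene CG7708 (ChT in RefSeq) held 72.3 against 41.8 and 92.9 against 60.8 CPM. Tdc2 was the lowest of the 4 libraries for all 3 genes in both marks. The medians were 0.64 and 0.60 with TMM and 0.20 and 0.71 along level, so the H3K4me3 difference was smaller against promoters of like level.

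Among 67 homeodomain and POU genes, which set neuronal identity, ey and Lim3 were concordantly higher in OK107 and the LIM homeodomain genes CG4328 and CG32105 (Lmx1a in RefSeq) in Tdc2, beside 0.069% and 1.48% of all promoters. CG4328 held 9.87 against 27.3 and 13.6 against 38.1 CPM, and CG32105 held 16.6 against 42.5 and 21.3 against 52.2 CPM. Both lay below the Tdc2 input in both marks. The NK2 gene scro held 59.9 against 19.5 CPM of H3K27ac, with 86.7 and 56.2 in R57C10, so Tdc2 was the low library. Its H3K4me3 was 34.3 against 18.8 CPM, a log2 fold of 0.83.

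Of the remaining lists, concordance with TMM was rare and fell away along level. The muscle, fat body and blood list had 2 of 23 genes higher in Tdc2, Mlc1 and Act88F, the glial list had 1 of 15, Mdr65, and the odorant receptor list 1 of 57, beside 1.48% of all promoters. Along level none of these was concordant. Pan-neuronal genes (0 of 23), neuropeptide genes (0 of 25), dopamine and serotonin receptors (0 of 8) and ribosomal protein genes (0 of 88) had no concordant member with TMM in either direction. With shares of 0.069% and 1.48% over all promoters, lists of this size would hold few or none at the background rate. For other cells of the head, the medians along level were 0.03 in H3K4me3 and -0.11 in H3K27ac for glial genes, and -0.22 and 0.12 for photoreceptor genes. The summed H3K27ac of the glial list was 868 CPM in OK107 and 921 in Tdc2, and that of the photoreceptor list was 1620 and 1440 CPM. None of these markers was at 0 in either line, and the glial factor gene repo held 44.2 and 52.2 CPM of H3K27ac, below its inputs of 96.3 and 73.2. The part of such cells in the differences was not tested.

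Single marks passed 2-fold without the other at a few genes chosen after their values were seen. The D2 dopamine receptor gene D2R had an H3K27ac of 127 against 53.1 CPM, a log2 fold of 1.24, with 20.5 and 69.6 in R57C10. Its H3K4me3 was 5.90 against 10.5 CPM, far below input. The photoreceptor scaffold gene inaD had an H3K27ac of 15.6 against 78.8 CPM, a log2 fold of -2.27, with 33.5 and 23.2 in R57C10. Its H3K4me3 of 11.7 against 23.9 CPM went the same way and fell just short of 2-fold after adding 1 CPM. In H3K27ac other photoreceptor genes did not go with inaD, since the median of that list was 0.12. The 3 promoters that passed 2-fold in opposite directions were jhamt, CG10202 and CR31386, each lower in OK107 in H3K4me3 and higher in H3K27ac.

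Inputs differed at few promoters. With a mean input of at least 5 CPM, 60 genes differed by 2-fold, 12 of them higher in OK107 and 48 in Tdc2. Toward OK107 the largest differences were mthl8 and the protein phosphatase gene Pp1-Y1, at 20.97 CPM in OK107, 0.12 in Tdc2 and 25.6 in R57C10. Of the 12 genes with higher input in OK107, 8 were Su(Ste) repeats, and 6 of the 9 found in RefSeq, Pp1-Y1 among them, lie on the Y chromosome, against 0 of 47 found among the 48. The labels give no sex for the pools, and the part of sex in these inputs was not tested. Chromosome 4, a small and largely heterochromatic chromosome, had a lower input in OK107 at 78 of 82 compared promoters, with a median log2 difference of -0.47, against -0.03 to -0.05 on the large arms. It also held 11 of the 38 promoters that were higher in Tdc2 along enrichment, and 35 of these 38 had a lower input in OK107. The part of the input in those calls was not tested. On chromosome 4 only ey was concordantly higher in OK107, against this lower input.

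H3K27me3 over gene bodies was read in separate libraries (1 of OK107, 2 of Tdc2, 2 of R57C10) and had not entered the choice of promoters. With edgeR's quasi-likelihood test and Benjamini-Hochberg adjustment, 2036 of 14585 genes (14.0%) were higher in OK107 and 213 (1.46%) lower at an adjusted p under 0.05. Among the 10 promoters higher in OK107, ey was lower and mthl8 higher, and 8 did not pass. Among the 214 higher in Tdc2, 212 were tested, 99 (46.7%) had more H3K27me3 in OK107 and 4 had less. Promoters below the Tdc2 input in both marks that were not concordant had a share of 21% (1393 of 6631), and those above it in both marks 1.58% (72 of 4563). The median log2 difference was 0.72 in the 212 and -0.04 in all genes. The positive sign of this median held for the TMM set alone. The 7 genes concordant along level are too few to show whether the excess of higher H3K27me3 was kept. The shares below stand beside 14.0% higher and 1.46% lower over all genes. Of the Tdc2-side promoters concordant along enrichment, 35 were tested, 5 (14.3%) were higher and 11 (31.4%) lower in OK107, with a median of -0.53. Of the 7 along level, 2 were higher and 2 lower, with a median of -0.14.

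At ey, Vmat and dmrt99B the active marks and H3K27me3 ran in opposite directions. H3K27me3 was also lower in OK107 in the list of 24 chromosome 4 genes, which holds ey. Its median log2 difference was -0.69, beside -0.04 in all genes. The part of the chromosome in the ey difference was not tested. The H3K27me3 of ey was 159 CPM in OK107 and 909 ± 43.9 (SD, n = 2) in Tdc2, a log2 difference of -2.52 ± 0.24 (SE, edgeR adjusted p = 7.8e-05). Vmat had 734 against 179 ± 8.39 CPM, a difference of 2.04 ± 0.18 (edgeR adjusted p = 7.5e-05). For dmrt99B the levels were 340 against 86.6 ± 15.0 CPM, a difference of 1.97 ± 0.19 (edgeR adjusted p = 7.9e-05). VGlut and Imp, which at their kept windows were past 2-fold toward Tdc2 in H3K27ac alone, were higher in OK107 by 2.04 ± 0.17 and 1.97 ± 0.17. So were inaD, by 1.55 ± 0.16 (edgeR adjusted p = 9.1e-05), CG4328, by 1.79 ± 0.18 (8.6e-05), and CG32105, by 1.46 ± 0.18 (0.00022).

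Other concordant promoters differed without a matching H3K27me3 difference. For dac the levels were 600 against 646 ± 34.1 CPM (edgeR adjusted p = 0.77), and for pros 2198 against 2253 ± 81.6 CPM (0.93). Lim3 had 1391 against 999 ± 11.4 CPM, a difference of 0.48 ± 0.19 in the same direction as its active marks (edgeR adjusted p = 0.12). CG9894 was lower in OK107 in H3K27me3 too, by 0.88 on the log2 scale, at 12.1 against 22.3 ± 0.461 CPM with gene body inputs of 24.4 and 35.4 CPM (edgeR adjusted p = 0.027). The Tdc2 gene, at 47.8 against 52.7 ± 1.60 CPM with inputs of 69.9 and 73.2, carried H3K27me3 below input in both lines (edgeR adjusted p = 0.67). mthl8 held 10.1 CPM in OK107 and 0 in the other 4 libraries, as its input did.

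**Figure D5:**
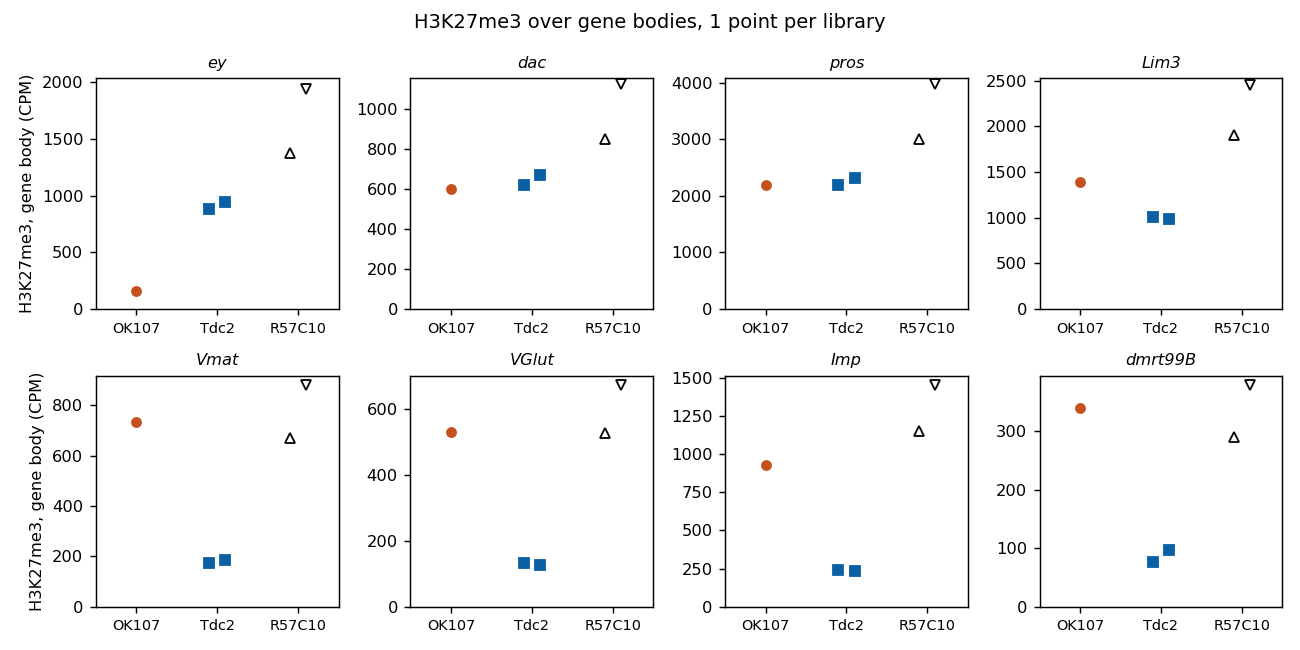
H3K27me3 over gene bodies in TMM-scaled CPM (y axis, from 0, with its own scale in each panel) for 8 genes, with 1 symbol per library of OK107, Tdc2 (both libraries) and R57C10 (early and late). OK107 is the lowest library for ey (159 CPM) and the Tdc2 libraries are the lowest for Vmat, VGlut, Imp and dmrt99B, while OK107 and Tdc2 lie close together for dac and pros.

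By list, H3K27me3 was higher in OK107 for 56 of 67 homeodomain and POU genes and all 8 Hox genes, and lower for 2 of the 67. Yet of these 67 genes 4 were concordant in the active marks, so most differences in H3K27me3 had no 2-fold counterpart in both active marks. Median H3K27me3 log2 differences were 0.92 for these 67 genes and 0.94 for Hox genes, but -0.33 for ribosomal protein genes. They were 0.20 for genes below the Tdc2 input in both active marks and -0.24 for genes above it in both. The part of the H3K27me3 contrast of the single OK107 library in these and the earlier differences was not tested. Of Tdc2, Tbh, Vmat and Tdc1, Vmat alone was higher in OK107 and 0 were lower, and VGlut, on the same list, was higher too. In the Kenyon cell list 4 of 28 were higher (Imp, run, ab and mamo) and 2 lower (ey and jdp). These counts stand beside 14.0% and 1.46% over all genes.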

How the data were processed

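Chromatin immunoprecipitation and sequencing reads were deposited by the authors as raw counts per annotated isoform, in promoter windows for H3K4me3, H3K27ac and inputs and over gene bodies for H3K27me3. Per the submitters' processing notes, CASAVA 1.8, Bowtie 0.12.7 and bedtools 2.15 were used, with positions on dm3; the treatment of reads with several matches is not given in the sources used here, and close paralogs and overlapping genes are uncertain. Another 67 sample columns were not used. Of 25701 entries, 92 without a position and 203 without a gene (0.828 to 1.16% of promoter reads) were left out.

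For each gene the window with the largest CPM sum over the 4 mark libraries of OK107 and Tdc2 was kept. Scaling was TMM over all libraries of a mark (edgeR 4.0.16, R 4.3.3), with a pseudocount of 1 CPM. Alternatives were total counts, RLE, TMM over both lines only, a running median of 401 promoters along level, input subtraction, other windows, pseudocounts of 0.5 and 5 CPM, filters of 0 and 20 CPM, and the large arms. A running median along enrichment, a 1.5-fold threshold and all distinct windows were added after seeing the data. Intervals are exact Clopper-Pearson at 95%, and reads are not independent molecules.

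H3K27me3 was tested with edgeR's quasi-likelihood fit over all lines (2 residual degrees of freedom, common dispersion 0.02), and DESeq2 1.42.0 was an alternative. OK107's single library was assumed to vary like the others, and the labels do not say whether replicates were separate preparations, so the p-values rest on a spread between samples that may be only technical. Date tags name R57C10 and Tdc2 replicates, since columns carry no replicate number. Within each mark, and for the inputs, the date tags of R57C10 differ from those of the other lines, so line and date cannot be told apart there.

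The members and the 23 gene lists were chosen with earlier results of these data known. Named were all genes of 5 lists (octopamine synthesis and loading, its receptors, Kenyon cell, cholinergic, and the loci w, Tdc2 and ey), up to 4 of other lists, and genes concordant with TMM and along level above the median level and above input in both marks, with inputs within 2-fold and a named symbol. The last rule left ey alone, so any other gene named outside those lists was chosen after its values were seen. A planned motif count in promoters was not run. Both steps were tested on simulated data.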

Additional observations from a re-analysis of the deposited data

How the results depend on the processing

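The counts depended on scaling. Concordant promoters higher in OK107 numbered 10, and 2 with total counts, 21 with input subtracted and 478 at 1.5-fold. Those higher in Tdc2 numbered 214, and 373 with total counts, 125 with RLE, 7 along level, 38 along enrichment, 69 with a pseudocount of 5 CPM, 26 with a filter at 20 CPM and 1324 at 1.5-fold. The share of H3K4me3 calls also called in H3K27ac was 3.30%, and 5.28, 2.02, 7.58, 21, 1.74, 1.42 and 15.9% in the order of the Tdc2 counts. Restricting to the large arms left no value for the list of chromosome 4 genes. Along level at 1.5-fold, 111 and 76 promoters were concordant, against 38 and 140 between the R57C10 libraries. H3K27me3 calls numbered 2249, 2176 with DESeq2, 3718 with total counts, and 2371 to 4224 when 1 library was left out (4224 without the early and 3826 without the late Tdc2 library). Lower among the 10 were 1 gene, 5 with total counts, 2 with OK107 and Tdc2 only, and 1 to 2 when 1 library was left out. Higher among the 214 were 95 to 111 when 1 library was left out. The median H3K27me3 log2 difference of the Tdc2-side promoters was 0.72 with TMM, -0.14 for the 7 along level and -0.53 for the 35 along enrichment. With 7 genes along level, whether the excess of higher H3K27me3 was kept cannot be judged. The cause of these shifts was not tested. No paired analysis was possible because OK107 had 1 library of each mark and shared fewer than 2 replicate numbers with Tdc2. The Tdc2 H3K4me3 library was the shallowest, at 6 M reads, and with 1 library a side the error between preparations is unknown.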
